A study of Macaca mulatta with 27 samples.

Results

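Rhesus pluripotent stem cells (PSCs) carried through the NHSM-v protocol were compared with the same cells carried through the t2iLGöY protocol. The comparison rests on 6 of the 27 RNA-seq libraries of the study, namely the 3 libraries labelled NHSM-v and the 3 labelled t2iLGöY, and on all 17967 gene symbols of the deposited count tables. The study subjected a rhesus embryonic stem (ES) cell line to several protocols that aim to convert primed PSCs, similar to the epiblast close to gastrulation, into naive PSCs, similar to the epiblast before implantation. The 21 other libraries came from primed cells and from 5 further protocols, and they serve here only to place the levels.

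The parental line of the experiment is LyonES-tGFP-(S3), a clonal rhesus ES line with a tauGFP reporter under the ubiquitous CAG promoter and a STAT3-ERT2 fusion protein that needs tamoxifen for its activity. By the study's account all libraries share this clonal origin, and genetic changes acquired in culture were not checked. Neither of these protocols used tamoxifen, so STAT3-ERT2 was present and inactive in both groups, and both kinds of cells were passaged as single cells after enzymatic dissociation. t2iLGöY stands for titrated inhibitors of MEK and GSK3β, leukaemia inhibitory factor (LIF), the protein kinase C (PKC) inhibitor Gö6983, and the inhibitor Y-27632. The composition of the NHSM-v medium, the number of passages, and the support on which the cells grew are not given in the sources used here. The labels call both groups naive cells and do not say whether replicates were separate cultures, so the p-values below measure the spread between these libraries, which may be technical.

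As background, MEK and its substrate ERK transmit fibroblast growth factor (FGF) signals and switch on a set of immediate targets, many of which damp the same pathway. GSK3β inhibition stabilizes β-catenin and so mimics a Wnt signal, LIF acts through gp130, JAK kinases, and STAT3, and PKC drives AP-1 transcription factors. Naive PSCs are known for transcription factors such as KLF4, KLF17, and TFAP2C, on top of the core factors POU5F1 (OCT4), NANOG, and SOX2 that primed PSCs also use.

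The depth of the libraries was from 9504626 to 12201171 counts for NHSM-v and from 12827393 to 13849980 counts for t2iLGöY, and the 10 most counted genes took 5.2% to 5.24% of the former and 3.55% to 3.68% of the latter. Levels are given as CPM (counts relative to library size) after TMM scaling. In these libraries, 3 counts corresponded to 0.264 to 0.338 CPM for NHSM-v and to 0.2 to 0.217 CPM for t2iLGöY, and genes that did not exceed 3 counts in any library of a group are described as at or under the floor in it. Floors and counting intervals cover counting error only. No 2 libraries of a group agreed within sampling noise. The root mean square difference of log2 CPM had a median of 0.691 within NHSM-v (3 pairs, 0.615 to 0.703), 0.755 within t2iLGöY (3 pairs, 0.675 to 0.816), and 1.38 between the groups (9 pairs, 1.31 to 1.49). Each pair between the groups was therefore farther apart than any pair of replicates.

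The labels call both groups rhesus ES cells in the naive state, and several markers of pluripotency, though not all of them, were at or near 0 in both. POU5F1 had 0.226, 0.206, and 0.440 CPM in NHSM-v and 1.64, 1.80, and 0.0722 CPM in t2iLGöY, which is 2 to 5 counts and 1 to 27 counts per library, and was too low to be tested. NANOG and the naive factor KLF17 had no count in any of the 6 libraries, and PRDM14 had a single count in t2iLGöY replicate 3. SOX2 and the naive-state genes TFAP2C and KLF4, described below, had counts in all 6 libraries. In primed cells, POU5F1, NANOG, and PRDM14 were at 1182 ± 67.03, 134 ± 19.4, and 277 ± 57.3 CPM (SD, n = 6). The 6 primed libraries form 2 sets of 3 by the letters of their table columns, J and K, and the titles and protocol labels disagree on the set of 2 of them. The sets stood apart in some genes, with means of 229 and 325 CPM for PRDM14, 1669 and 1236 CPM for EGR1, and 223 and 319.7 CPM for SOX2, so an SD over the 6 includes this difference. CDH1, which encodes the E-cadherin of pluripotent epithelium, had 1 count in all 6 libraries together. The groups are therefore called by their protocols and not as naive cells.

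NHSM-v and t2iLGöY cells differed in 45.8% of the genes that could be tested, and the differences ran in both directions. Genes of matrix, contractile actin, and ERK feedback were higher in NHSM-v cells, whereas genes of the dorsal neural tube, neurons, neural crest, and pigment cells were higher in t2iLGöY cells. Of 13067 genes tested by edgeR's quasi-likelihood test with Benjamini-Hochberg adjustment, 5982 had an adjusted p under 0.05, and these are called different below. A total of 3022 genes (23.1%) were higher and 2960 (22.7%) were lower in NHSM-v, a split of 50.5% to 49.5% of the calls. This balance depends on the TMM scaling. With upper-quartile scaling, 41.6% of the calls were higher and 58.4% lower, and with total counts alone 31.9% were higher and 68.1% lower. The median log2 fold change of all genes was -0.03 with TMM, -0.13 with upper-quartile scaling, and -0.24 with total counts alone. Small shifts on the log2 scale are therefore set against the median of all genes. The counts of called genes in each list below are likewise to be read against the 23.1% higher and 22.7% lower of all genes. All log2 fold changes are NHSM-v minus t2iLGöY, so that positive values are higher in NHSM-v, and ± is their standard error (n = 3 and 3).

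Among the called genes, 2543 differed by at least 1 on the log2 scale, 1236 of them (9.46% of the genes tested) higher and 1307 (10%) lower, and 570 differed by at least 3, with 262 higher and 308 lower. The 3 libraries of one group did not overlap the 3 of the other for 7314 of the genes tested (56%) and for 5831 of the called genes. In 35 called genes the 3 t2iLGöY libraries held no count, and in 57 the 3 NHSM-v libraries held none. For such genes the fitted fold change depends on the method, and a lower bound is given in its place.

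**Figure D1:**
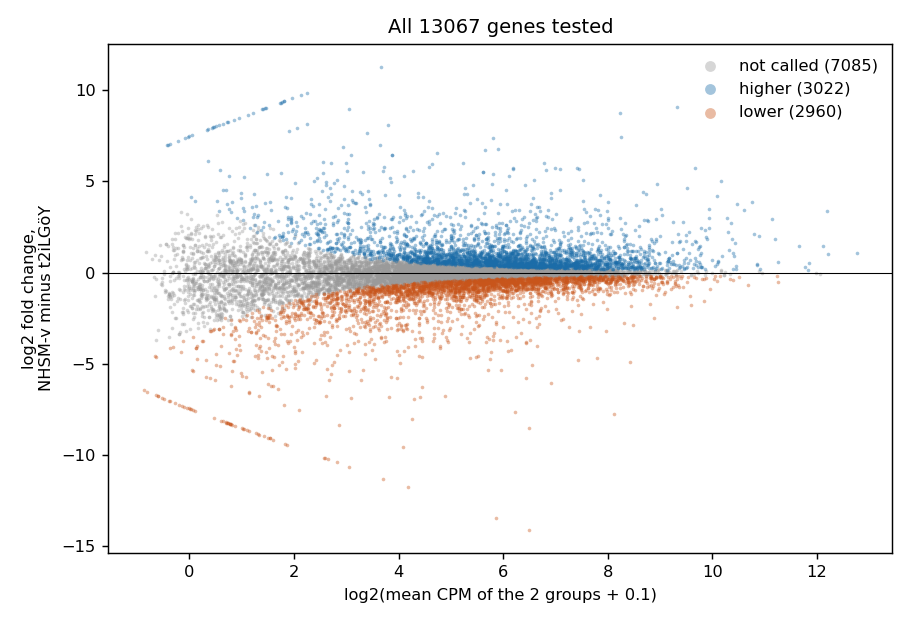
Each point is 1 of the 13067 genes tested, with the log2 of its mean CPM in both groups (plus 0.1) on the x axis and its log2 fold change, NHSM-v minus t2iLGöY, on the y axis. The 3022 genes higher and the 2960 genes lower in NHSM-v lie at all levels above the lowest, and the thin straight lines at far left are genes with no count in 1 of the groups, whose fitted fold change is not a measured size.

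The genes with the largest differences belonged to matrix, secreted signals, pigment, and dorsal brain, among others. They were picked only among genes whose NHSM-v and t2iLGöY libraries did not overlap, so their lack of overlap is no result. Of the 12 that led in NHSM-v, 11 are reported here, namely ANKRD1, COL6A3, ANGPTL4, CDCP1, COL8A1, CCL2, KCNA1, ATP10A, LIF, TFPI2, and PALMD, and the 12 that led in t2iLGöY were TYRP1, OTX1, CDH19, WNT8B, SLITRK6, SOX10, WDR49, CBLN1, TTR, RPH3A, IRS4, and DCT. COL6A3, which encodes a chain of the collagen VI microfibril, stood at 1275, 1159, and 1387 CPM in NHSM-v replicates 1 to 3 and at 2.66, 0.334, and 4.19 CPM in t2iLGöY replicates 1 to 3. ANGPTL4, a secreted inhibitor of lipoprotein lipase, stood at 32.4, 25.3, and 25.2 CPM against 0.273, 0, and 0 CPM. The log2 fold changes were 9.09 ± 0.26 (adjusted p = 2.69e-15) for COL6A3 and 8.09 ± 0.55 (adjusted p = 9.24e-10) for ANGPTL4.

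ANKRD1, a cardiac and muscle ankyrin-repeat gene driven by YAP, had 33.7, 24.9, and 16.7 CPM in NHSM-v and no count in t2iLGöY, at least 121-fold higher against a floor of 3 counts per library. The cytokine gene LIF itself, whose product is a component of the t2iLGöY medium, was at 94.05, 101, and 102 CPM in NHSM-v and at 0.341, 1.13, and 1.37 CPM in t2iLGöY (log2 fold change 6.71 ± 0.26, adjusted p = 2.79e-13). The chemokine gene CCL2 was at 103, 108, and 121 CPM in NHSM-v, while of the t2iLGöY libraries only replicate 3 had any CCL2, at 2.10 CPM. All 3 genes were at or near 0 in at least 1 t2iLGöY library.

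On the other side, TYRP1, an enzyme of melanin synthesis, had no count in NHSM-v and 223, 90.99, and 226 CPM in t2iLGöY, at least 592-fold lower in NHSM-v. The 3 t2iLGöY libraries were not alike here, with replicate 2 well below the other values. OTX1, a forebrain and midbrain homeobox gene, had no count in NHSM-v and 120.3, 132, and 94.4 CPM in t2iLGöY (at least 381-fold lower). The roof plate and forebrain ligand gene WNT8B was likewise without a count in NHSM-v, against 28.1, 29.1, and 20.01 CPM (at least 84.7-fold lower).

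CBLN1, which encodes a secreted organizer of cerebellar synapses, was at 560.3, 638, and 449.6 CPM against 1.92, 2.37, and 3.08 CPM in NHSM-v (log2 fold change -7.76 ± 0.17, adjusted p = 6.34e-17). TTR, the thyroxine carrier made by choroid plexus and liver, was at 152, 168, and 123.2 CPM against 0.564, 0.309, and 1.23 CPM (-7.63 ± 0.26, adjusted p = 3.12e-14). Both genes were chosen among those without overlap, so the gap between the groups is no result.

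**Figure D2:**
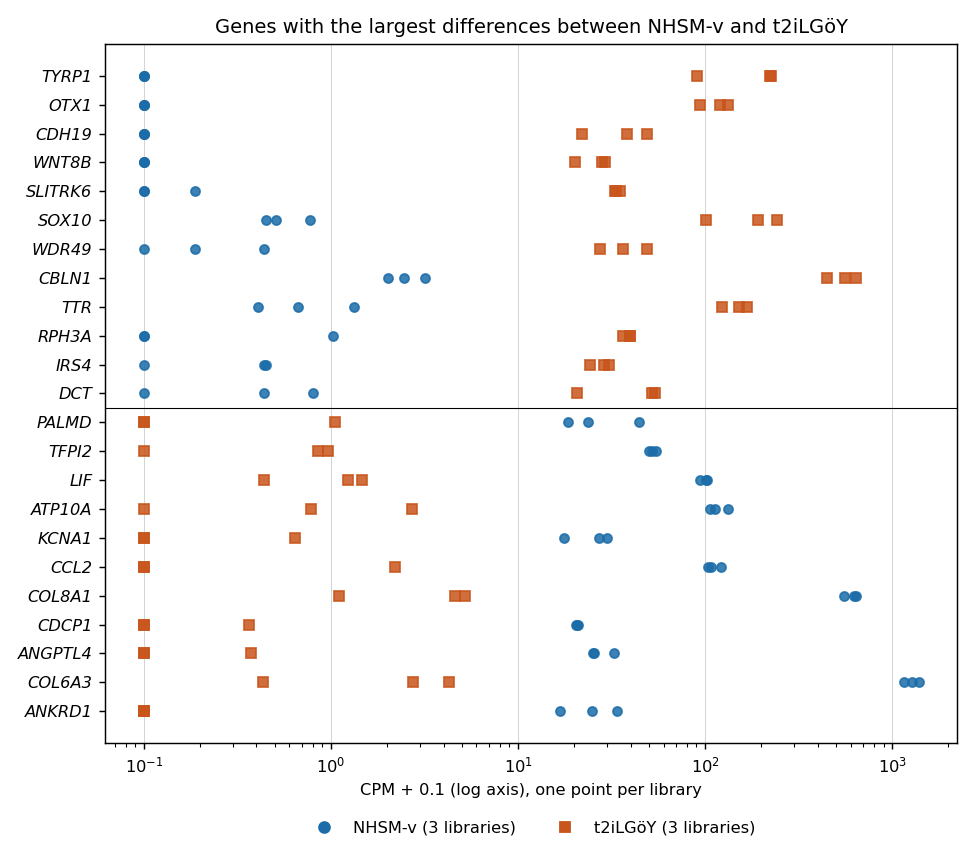
CPM plus 0.1 on a log axis for the 12 genes with the largest fall (top) and 11 of the 12 with the largest rise (bottom) in NHSM-v against t2iLGöY, 1 point per library. Points at the left edge are libraries with no count. Only genes whose 3 NHSM-v and 3 t2iLGöY libraries did not overlap could be chosen, so the separation within each row was set by the choice.

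Of 18 core pluripotency genes found in the tables, 9 were tested. L1TD1 and 1 further gene were higher in NHSM-v, FOXD3, LIN28B, DNMT3B, and OTX2 were lower, and the median of the 9 log2 fold changes was -1.01, against -0.03 over all genes. This median was -0.16 over the 7 genes with at least 10 counts in every library, -0.58 with all 8 groups in one fit, and -1.58 without NHSM-v replicate 1. SOX2, which neural progenitors also express, was at 106, 98.05, and 97.9 CPM in NHSM-v and 99.7, 116, and 111 CPM in t2iLGöY. These ranges overlapped, with a log2 fold change of -0.10 ± 0.11 (95% interval -0.32 to 0.12, adjusted p = 0.463). DNMT3B, the de novo DNA methyltransferase that marks primed cells, was at 28.2, 21.6, and 28.1 CPM against 81.2, 74.4, and 73.98 CPM (-1.55 ± 0.15, adjusted p = 1.34e-07). Both levels were far below the 3104 ± 181 CPM (SD, n = 6) of primed cells.

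Naive-state genes gave no common direction. KLF17 and 10 others of the 18 naive genes found were too low to test. KLF4 was at 2.14, 5.56, and 3.17 CPM in NHSM-v and at 4.77, 2.40, and 3.68 CPM in t2iLGöY, with overlapping libraries (0.02 ± 0.64, adjusted p = 0.985). TFAP2C, an AP-2 factor shared by naive cells and trophoblast, stood at 78.6, 75.6, and 70.4 CPM against 19.5, 11.3, and 21.1 CPM, higher in NHSM-v (2.13 ± 0.20, adjusted p = 6.11e-08). KLF5 followed the same direction with 23.8, 37.6, and 33.9 CPM against 5.87, 3.20, and 2.24 CPM (3.08 ± 0.33), and IL6ST, the gp130 receptor chain, was modestly higher (0.69). TBX3, a T-box factor, was lower in NHSM-v (-3.02 ± 0.91), a call that was lost without NHSM-v replicate 3 or t2iLGöY replicate 1. TFE3 had mean levels of 51.96 and 44.5 CPM and was not called (0.24 ± 0.14, adjusted p = 0.183). By immunostaining, the paper reported stronger TFAP2C, KLF4, and TFE3 protein in t2iLGöY cells and none of them in NHSM-v cells. These RNA levels do not show that order, and why RNA and protein differ was not tested.

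The feedback and immediate target genes of MEK-ERK signaling were almost uniformly higher in NHSM-v. Of 21 tested genes, 19 were higher (90.5%, against 23.1% of all genes), 1 was lower, and the median log2 fold change was 2.12. EGR1, a zinc-finger factor induced within minutes of ERK activation, was at 132, 140.4, and 156 CPM in NHSM-v and 3.21, 2.74, and 2.24 CPM in t2iLGöY, a difference of 52.5-fold (5.71 ± 0.17, adjusted p = 5.35e-15). SPRY4, a Sprouty inhibitor of the pathway, was at 184, 177, and 175 CPM against 9.75, 13.8, and 7.73 CPM (4.10 ± 0.17, adjusted p = 4.32e-13). DUSP6, the phosphatase that removes the activating phosphates of ERK, was at 187, 188, and 193 CPM against 12.9, 18.8, and 14.7 CPM (3.62 ± 0.14, adjusted p = 1.70e-13).

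For these 3 genes no library of one group reached the other, as was the case for 56% of all genes tested. ETV4, an ETS factor downstream of FGF, was 25.3-fold higher (74.5, 70.99, and 77.1 against 2.66, 2.80, and 3.40 CPM), and FOSL1, a Fos-related AP-1 subunit, stood at 5.75, 11.8, and 5.46 against 0.750, 0, and 0 CPM (4.89 ± 1.02). CCND1, the cyclin that ERK links to the cell cycle, was 1.81-fold higher (494, 511, and 572 against 298, 300.1, and 278 CPM). IL17RD (Sef) was higher by 1.31, and all 3 SPRED genes, which hold back RAS, were higher by 0.58 to 1.40, although the libraries overlapped for SPRED1. FOS was not called (0.84 ± 0.60, adjusted p = 0.273), and EPHA4, a guidance receptor, was the single lower gene (-0.85). All 3 NHSM-v libraries remained below the primed level of 386 ± 85.9 CPM for SPRY4 and of 1452 ± 264 CPM for EGR1 (SD, n = 6).

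Genes for PKC isoforms and AP-1 subunits leaned the same way, but less uniformly. Of 19 tested genes, 10 were higher and 2 lower (52.6% and 10.5%, against 23.1% and 22.7% of all genes). The other 7 were not called, and the median was 0.85. PRKCQ (PKCθ) was at 9.02, 7.61, and 7.57 CPM in NHSM-v and had 1 count in the t2iLGöY libraries together, a ratio of summed counts of 349 with an exact counting interval of 61.96 to 13822. PRKCB was at 37.2, 39.9, and 43.8 against 7.71, 4.74, and 5.13 CPM (2.79 ± 0.24), and PRKCA and PRKCE were also higher. JUN, the core AP-1 subunit, was at 241, 215, and 249 against 75.6, 68.2, and 60.7 CPM (1.80 ± 0.10, adjusted p = 6.37e-11), and FOSL2 at 101, 103, and 121 against 14.2, 10.9, and 25.1 CPM (2.72 ± 0.22). ATF3 and PRKD1 were lower (1 gene when any NHSM-v library was left out), and PRKD3 was not called (-0.20 ± 0.09).

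Of 15 LIF-JAK-STAT3 genes, 6 were higher and 2 lower (40% and 13.3%, against 23.1% and 22.7% of all genes). STAT3 was at 559, 588, and 599 CPM in NHSM-v and 303, 293, and 299 CPM in t2iLGöY (0.98 ± 0.06, adjusted p = 4.25e-10). Whether reads of the STAT3-ERT2 transgene were counted on STAT3 is not given in the sources used here. Its feedback target SOCS3 was at 30.3, 35.8, and 38.5 CPM against 41.3, 42.9, and 38.7 CPM, a difference that was not called (-0.22 ± 0.16, adjusted p = 0.291). SOCS2 was lower in NHSM-v (-1.02 ± 0.15), while the receptor genes IL6ST and OSMR, JAK1, PIM1, and JUNB were higher. LIFR, which encodes the LIF receptor itself, was not called (-0.09 ± 0.14).

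Direct Wnt/β-catenin targets split between genes that were not called and genes higher in NHSM-v. AXIN2, a scaffold of the β-catenin destruction complex and the usual readout of the pathway, was at 269.7, 257, and 273 CPM in NHSM-v and 289.6, 303, and 278 CPM in t2iLGöY, against a primed level of 7.04 ± 2.04 CPM (SD, n = 6), and was not called (-0.11 ± 0.07, 95% interval -0.26 to 0.04, adjusted p = 0.223). By contrast, the Wnt receptor ubiquitin ligase RNF43 was at 78.7, 77.6, and 68.3 against 3.41, 5.003, and 2.96 CPM (4.31 ± 0.21, adjusted p = 7.57e-12). NKD1, an intracellular inhibitor, was at 105, 114, and 125 against 21.8, 21.01, and 21.4 CPM (2.43 ± 0.13). TNFRSF19, MSX2, NKD2, NOTUM, and ZNRF3 were also higher, which makes 7 of 16 tested (43.8%, against 23.1% of all genes). MSX1 and BAMBI were lower (12.5%, against 22.7% of all genes), and 1 gene of the list was lower without NHSM-v replicate 2 or 3.

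The Wnt ligands themselves were divided. Of 35 tested ligands, receptors, and secreted modulators, 17 were lower and 10 higher in NHSM-v. WNT1, the roof plate and midbrain-hindbrain ligand, was at 19.8, 20.8, and 25.3 CPM in NHSM-v and 677, 702, and 626 CPM in t2iLGöY (-4.91 ± 0.10, adjusted p = 2.64e-17). The R-spondin gene RSPO1, whose product strengthens Wnt signals at the receptor, stood at 18.2, 14.4, and 17.4 against 419.5, 492, and 364 CPM (-4.66 ± 0.13). WNT4 was at 12.6, 8.85, and 14.6 against 339, 370.3, and 289 CPM (-4.77 ± 0.15). In these 3 genes all t2iLGöY libraries were far above all NHSM-v libraries, and the groups did not overlap in 56% of all genes tested.

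The opposite direction was held by the noncanonical ligands WNT5A, WNT5B, and WNT11 and by the Frizzled receptors FZD2, FZD4, FZD6, FZD7, and FZD8. WNT11 was at 7.10, 4.94, and 7.48 CPM in NHSM-v with no count in t2iLGöY, at least 31.4-fold higher. WNT5A and FZD7, which were chosen after their values were seen, were higher by 2.70 ± 0.24 and 2.32 ± 0.15. WNT3A, WNT7B, and WNT10B, of the canonical class, were lower in NHSM-v, with log2 fold changes from -4.02 to -3.56, although the call for WNT7B was lost when single libraries were left out. WNT10A, with 2 counts in the NHSM-v libraries together, was also lower, by a ratio of summed counts of 33.4 (exact counting interval 8.99998 to 279.7).

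TGF-β ligands and responsive genes were higher in NHSM-v, in 11 of 17 tested genes of the Nodal-Activin-TGF-β list with 2 lower and a median of 1.15. TGFB2 was at 433, 432, and 450.1 CPM in NHSM-v and 24.01, 23.02, and 21.3 CPM in t2iLGöY (4.28 ± 0.09, adjusted p = 4.42e-17). TGFB1 was at 16.5, 16.8, and 11.2 against 1.02, 0, and 0.650 CPM (4.73 ± 0.65), and TGFBI, a matrix protein named for its induction by TGF-β, at 110.2, 88.1, and 108 against 9.55, 2.94, and 7.44 CPM (3.96 ± 0.27). The activin subunit genes INHBA and INHBB were higher by 3.78 and 2.50. NODAL, GDF3, TDGF1, and FOXH1, the ligands, co-receptor, and effector that mark pluripotent cells, were too low to be tested. Without t2iLGöY replicate 3, 1 gene of the list was lower.

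All 4 ID genes, which encode helix-loop-helix inhibitors induced by BMP, were lower in NHSM-v. ID4 was at 3.27, 3.81, and 4.31 against 23.3, 35.4, and 35.6 CPM (-3.03 ± 0.27, adjusted p = 4.59e-08) and ID3 at 16.2, 14.8, and 13.8 against 83.4, 57.8, and 83.1 CPM (-2.31 ± 0.18, adjusted p = 5.60e-09), and ID1 and ID2 differed by -1.36 and -1.42. The ligand genes went in both directions, as BMP2 was lower (-1.84) and GDF6 higher (22.1, 18.3, and 20.4 against 1.36, 1.001, and 1.30 CPM, 4.05 ± 0.35). Follistatin (FST), a secreted antagonist of activin and BMP, was at 342, 359, and 329 against 21.8, 38.2, and 33.6 CPM (3.47 ± 0.15, adjusted p = 8.01e-13), and the antagonist GREM1 was higher as well. In total, 8 of the 23 genes of the BMP and ID list were higher and 7 lower (34.8% and 30.4%, against 23.1% and 22.7% of all genes).

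Of 20 Notch pathway genes, 5 were higher and 10 lower in NHSM-v (25% and 50%, against 23.1% and 22.7% of all genes). Their median log2 fold change was -1.08, but 0.21 over the 14 genes with at least 10 counts in every library. The summed level of the list was higher in NHSM-v (2747 against 1887 CPM). The receptors NOTCH1, NOTCH2, and NOTCH3, the ligand JAG1, and the glycosyltransferase LFNG were higher in NHSM-v, with NOTCH3 at 1066, 940.2, and 1018 against 495, 484, and 471 CPM (1.07 ± 0.06). The proneural-associated ligands DLL1 and DLL3, the HES family gene HES6, and the target genes HES4, HES5, HEY1, HEY2, HEYL, NRARP, and DTX1 were lower. HEY2 was nearly absent from NHSM-v, at 0, 0, and 0.352 CPM against 20.3, 9.81, and 20.2 CPM (-6.88 ± 0.69), and DLL3 was at 2.59, 0.514, and 1.76 against 28.4, 33.9, and 34.9 CPM (-4.31 ± 0.37). HES1, a Notch target shared by many tissues, was not called (0.29 ± 0.15, adjusted p = 0.132).

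FGF receptor genes went in both directions. FGFR2 was at 201, 207, and 207 CPM in NHSM-v and 706, 774, and 592 CPM in t2iLGöY (-1.74 ± 0.09, adjusted p = 6.68e-12), whereas FGFR1 was at 349, 352, and 364 against 147, 152, and 141 CPM (1.28 ± 0.07, adjusted p = 9.05e-11). FGFR3 was lower like FGFR2 (9.59, 8.95, and 8.54 against 39.9, 48.4, and 45.8 CPM), and the decoy receptor gene FGFRL1 was higher (71.3, 80.9, and 57.9 against 8.46, 4.54, and 7.66 CPM, 3.36 ± 0.22). FGF12 and FGF1 were the other 2 higher members and FGF9 and FGF13 the other 2 lower ones, of 15 tested. The 26.7% called in each direction lay close to the 23.1% and 22.7% of all genes.

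In the Hedgehog list, 6 of 11 tested genes were higher and 3 lower in NHSM-v (54.5% and 27.3%, against 23.1% and 22.7% of all genes). SHH, IHH, and DHH, the ligands, were all too low to be tested. The target genes disagreed, as HHIP was higher (20.7, 11.9, and 17.1 against 3.07, 0, and 0.433 CPM, 3.83 ± 0.74) and GLI1 and PTCH1 were lower (-2.98 and -0.58), with 1 lower gene in the list without NHSM-v replicate 2. The co-receptor gene GAS1 was at 35.6, 30.5, and 34.9 against 262, 289, and 265 CPM (-3.0 ± 0.10). Of 13 retinoic acid genes, 6 were lower, among them the binding protein CRABP1 (78.04, 81.9, and 82.03 against 521, 553, and 583 CPM, -2.76 ± 0.08) and the receptor RXRG (-2.51 ± 0.26), and 3 were higher, among them the degrading enzyme CYP26A1 (89.7, 72.7, and 84.9 against 32.6, 33.8, and 23.3 CPM, 1.47 ± 0.16). The shares of this list were 46.2% lower and 23.1% higher, against 22.7% and 23.1% of all genes.

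Genes of contractile actin and targets of SRF and YAP, the transcription factors that respond to actin tension, were higher in NHSM-v almost throughout. Of 23 tested genes, 21 were higher in NHSM-v and 1 lower, with a median of 2.23, and their summed level was 26018, 25925, and 26479 CPM in NHSM-v against 5524, 5305, and 5248 CPM in t2iLGöY. ACTA2, smooth muscle actin, was at 1398, 1369, and 1454 against 67.8, 56.4, and 47.9 CPM, 24.7-fold higher (4.63 ± 0.10, adjusted p = 4.56e-17). THBS1, a matrix glycoprotein and YAP target, was at 3176, 3278, and 3221 against 225, 219, and 225 CPM (3.87 ± 0.05, adjusted p = 4.42e-20).

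Both genes had replicates that lay close together in either group. CNN1 (calponin) was at 111, 78.6, and 96.7 against 2.25, 2.87, and 1.23 CPM (5.49 ± 0.24), and tissue factor (F3) at 8.46, 12.04, and 14.6 against 1.09, 0, and 0 CPM (4.98 ± 0.86). FLNA, filamin A, which crosslinks actin, was at 6462, 6591, and 6505 against 2514, 2236, and 2389 CPM (1.47 ± 0.04, adjusted p = 2.15e-15). CTGF and CYR61, the standard YAP reporter genes, were chosen after their values were seen and were higher by 4.18 ± 0.10 and 4.40 ± 0.09. MYLK was the lower gene (-0.71 ± 0.28), a call lost when any library other than t2iLGöY replicate 2 was left out, and AJUBA was not called.

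Matrix genes of fibroblasts were higher in NHSM-v in 25 of 26 tested cases, with none lower, and the remaining gene, FAP, was not called (0.82 ± 0.64, adjusted p = 0.316). The summed level of the list was 23449, 23664, and 23411 CPM in NHSM-v and 7231, 7031, and 7775 CPM in t2iLGöY. All 3 main chains of collagen VI took part. COL6A1 was at 1606, 1493, and 1692 against 30.6, 20.6, and 40.96 CPM (5.72 ± 0.16, adjusted p = 1.77e-15) and COL6A2 at 988, 886, and 984 against 36.8, 29.9, and 31.8 CPM (4.87 ± 0.09, adjusted p = 5.01e-18). TNC (tenascin C), an adhesion-modulating glycoprotein, was at 2237, 2269.6, and 2196 against 63.5, 74.5, and 72.03 CPM (5.01 ± 0.07, adjusted p = 1.32e-19).

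Not all matrix genes were rare in t2iLGöY. COL1A1, the main chain of collagen I, was at 6152, 6706, and 6238 CPM in NHSM-v and still at 3015, 2933, and 3469 CPM in t2iLGöY (1.03 ± 0.05, adjusted p = 1.50e-11), and SPARC, a collagen-binding glycoprotein, at 2946, 2978, and 2867 against 1889, 2054, and 1932 CPM (0.59 ± 0.04). The small proteoglycan LUM (lumican) had 9.25, 8.13, and 10.6 CPM in NHSM-v and no count in t2iLGöY, at least 45.1-fold higher. Among all 34 collagen genes tested, 21 were higher and 6 lower. The lower ones were COL14A1, COL9A2, COL23A1, COL4A6, COL4A5, and COL2A1, and the basement membrane chain COL4A2 was 4.001-fold higher (3109, 2993, and 2928 against 796, 656, and 824 CPM).

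Integrin and laminin genes were higher in 16 of 31 cases and lower in 3 (LAMC3, ITGA10, and ITGA4), with a median of 0.66. These are 51.6% and 9.68%, against 23.1% and 22.7% of all genes, and 1 gene was lower without NHSM-v replicate 2 or 3. The median was 1.19 without NHSM-v replicate 1 and 1.19 without t2iLGöY replicate 2. ITGAV and ITGA5, the α chains of vitronectin and fibronectin receptors, were at 427, 439, and 421 against 62.3, 80.3, and 59.8 CPM (2.68 ± 0.10) and at 301, 284, and 294 against 60.3, 51.4, and 46.2 CPM (2.49 ± 0.10). Their common partner ITGB1 was at 2182, 2101, and 1954 against 682, 673, and 707 CPM (1.61 ± 0.05, adjusted p = 2.26e-14). LAMB1, a laminin β chain, was higher by 2.74 ± 0.09, and LAMC3 was lower (2.37, 3.29, and 2.11 against 13.5, 15.01, and 18.2 CPM, -2.57 ± 0.37).

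Of 49 tested matrix proteases and their inhibitors, 28 were higher and 10 lower in NHSM-v. ADAMTS16 was at 204, 226, and 236 against 3.21, 8.87, and 1.23 CPM (5.64 ± 0.33) and the membrane-anchored MMP25 at 32.9, 18.004, and 24.8 against 1.57, 0, and 0 CPM (5.57 ± 0.71). SERPINI2, a serpin, ran the other way, with no count in NHSM-v and 9.96, 13.9, and 11.8 CPM in t2iLGöY (at least 39.2-fold lower). The collagen chaperone SERPINH1 was at 1553, 1503, and 1427 against 413, 356, and 404 CPM (1.95 ± 0.06, adjusted p = 1.67e-14).

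CDH2 (N-cadherin) and VIM (vimentin), which mesenchymal cells and neural progenitors share, were high in both groups. CDH2 was at 1531, 1503, and 1457 CPM in NHSM-v and 1312, 1386, and 1201 CPM in t2iLGöY (0.22 ± 0.06, adjusted p = 0.0038), and VIM at 3861, 3888, and 3849 against 3269, 2899.98, and 3222 CPM (0.32 ± 0.04, adjusted p = 8.05e-06). Neither was called with total counts alone, where the log2 fold change of CDH2 was -0.00242 and that of VIM 0.10. FN1 (fibronectin) differed more, at 8624, 8606, and 8481 against 850.4, 803, and 811 CPM (3.39 ± 0.04, adjusted p = 9.53e-21). The paired-type homeobox gene PRRX1 was 4.77-fold higher (153, 180.5, and 178 against 36.4, 31.2, and 40.6 CPM) and TWIST2 was at 10.4, 11.2, and 14.96 against 0.682, 0.600, and 0.578 CPM (4.29 ± 0.50). In this list of mesenchymal regulators, 10 of 20 genes were higher, ALX4 and ZEB2 were lower, and SNAI1, SNAI2, TWIST1, and ZEB1 were not called. Without t2iLGöY replicate 2, 4 were lower.

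**Figure D3:**
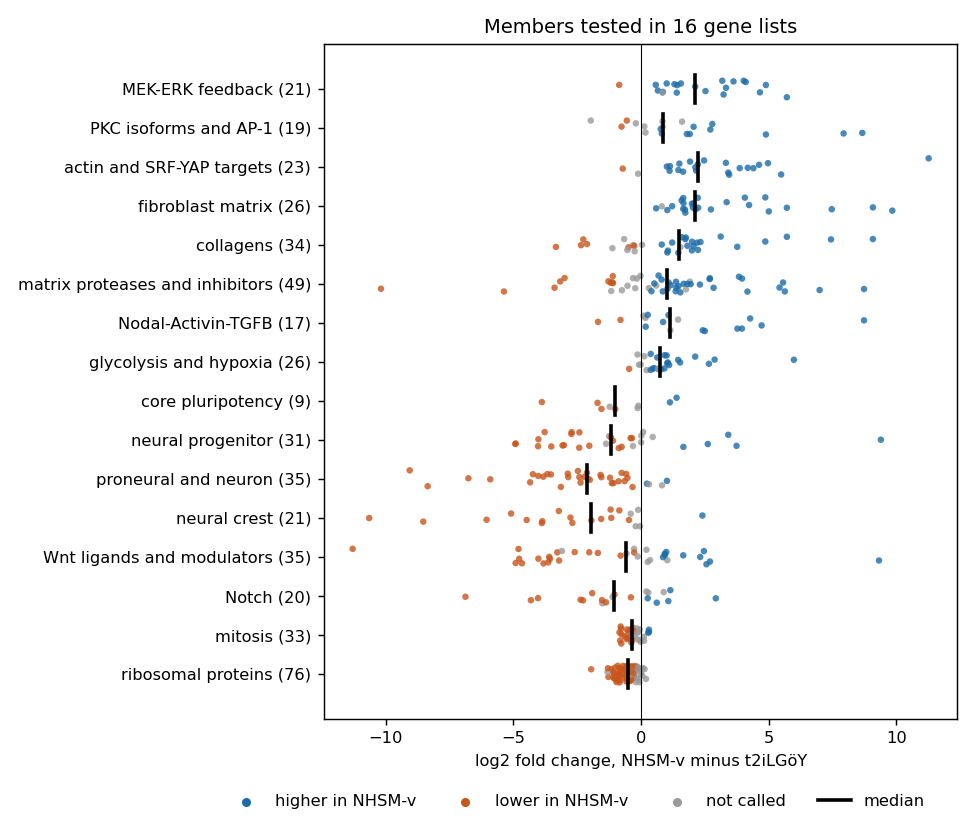
Log2 fold change, NHSM-v minus t2iLGöY, of each tested member of 16 gene lists (number tested in parentheses), coloured by its call, with the list median as a black bar. Most matrix, actin, and MEK-ERK members lie to the right and most neural and neural crest members to the left. Notch members lie on both sides, and the ribosomal protein genes form a narrow cloud with a median of -0.51. Points beyond about 8 on either side include genes with no count in 1 group, whose fitted position is not a measured size.

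Of 22 epithelial genes found, 13 were too low to test, and 5 had at most 3 counts in every library of both groups. The untested genes held CDH1, EPCAM, ESRP1, and GRHL2. Of 9 tested, 2 were higher and 2 lower in NHSM-v (22.2% each, against 23.1% and 22.7% of all genes). Their median log2 fold change was -0.02. The tested genes held CLDN6, a claudin of embryonic epithelia, at 366, 355, and 349.8 CPM in NHSM-v and 13.3, 13.4, and 4.77 CPM in t2iLGöY (5.09 ± 0.22, adjusted p = 8.72e-13), and KRT8, a simple epithelial keratin, at 53.9, 55.1, and 59.1 against 10.9, 8.27, and 8.96 CPM (2.59 ± 0.19, adjusted p = 1.74e-09). KRT5, a keratin of basal epithelium, had 6.09, 8.33, and 5.98 CPM in NHSM-v and no count in t2iLGöY (at least 32.8-fold higher), and KRT17 was at 21.1, 19.4, and 15.1 against 0, 1.27, and 1.52 CPM (4.32 ± 0.61). OVOL1 and GRHL1 were lower in NHSM-v, and neither was called when 1 of the NHSM-v libraries was left out. In a list of 64 claudins and keratins, 13 were tested, 5 were higher, 2 were lower, and 6 were not called. The shares were 38.5% higher and 15.4% lower, against 23.1% and 22.7% of all genes, and the median was 0.10.

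Of 22 muscle, blood, and blood vessel genes found, 13 were too low to test, among them PECAM1, CDH5, MYOD1, PTPRC, and SPI1, and MYOD1 and PTPRC had no count in any of the 6 libraries. Of 9 tested, 6 were higher and none lower in NHSM-v (1 lower without t2iLGöY replicate 2). RUNX1, a blood factor that fibroblasts also express, was at 252, 249, and 294 against 6.89, 0.467, and 8.67 CPM (5.66 ± 0.37, adjusted p = 4.65e-10), and TEK, the angiopoietin receptor, at 17.7, 20.4, and 20.5 against 2.93, 3.27, and 2.60 CPM (2.74 ± 0.31). KDR, the VEGF receptor, was at 62.9, 63.3, and 55.2 against 7.37, 12.7, and 8.09 CPM (2.69 ± 0.21). ACTA1, skeletal actin, was at 19.3, 18.8, and 22.5 against 4.30, 2.94, and 0.578 CPM (2.96 ± 0.46).

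Neural progenitor genes were lower in NHSM-v in 19 of 31 cases (61.3%, against 22.7% of all genes) and higher in 5, with a median of -1.18. PAX6, a homeobox factor of neural progenitors and eye, was at 26.3, 20.2, and 23.5 CPM in NHSM-v and 151, 189, and 126 CPM in t2iLGöY (-2.73 ± 0.16, adjusted p = 6.98e-11), and both were above the primed mean of 3.45 CPM. LMX1A, which specifies the roof plate and midbrain dopaminergic progenitors, was at 11.2, 11.6, and 11.97 against 206, 203, and 160.5 CPM (-4.02 ± 0.14, adjusted p = 3.85e-14), and SOX3 at 0.789, 0.514, and 0 against 10.8, 15.01, and 12.9 CPM (-4.92 ± 0.65).

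The 5 genes with the opposite direction were SOX1, SOX21, PAX2, EN1, and EN2. EN2, the engrailed factor of the midbrain-hindbrain border, was at 4.17, 8.23, and 8.10 CPM in NHSM-v with no count in t2iLGöY, at least 32.98-fold higher, whereas WNT1, which is active at the same border, had the reverse direction. The intermediate filament gene NES (nestin) was at 1944, 1947, and 1953 against 1799, 1966, and 1781 CPM and was not called (0.09 ± 0.05, 95% interval -0.01 to 0.19, adjusted p = 0.15), with overlapping libraries. With total counts alone NES was called lower in NHSM-v (-0.13).

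Proneural factors and neuronal genes were higher in t2iLGöY almost throughout, with 31 of 35 tested genes lower in NHSM-v, 2 higher (MAP2 and NEFL), and a median of -2.12. Their summed level was 2784, 2722, and 2540.1 CPM in NHSM-v and 5201, 5912, and 5545 CPM in t2iLGöY. ATOH1, a proneural factor of hindbrain and hair cells, had no count in NHSM-v and 4.50, 5.94, and 5.92 CPM in t2iLGöY (at least 17.96-fold lower). ONECUT1 had a single count in NHSM-v and 14.7, 13.9, and 14.2 CPM in t2iLGöY, a ratio of summed counts of 428 (exact counting interval 76.6 to 16945).

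ISL1, of motor and sensory neurons, was at 0, 0, and 0.528 against 12.96, 9.47, and 14.7 CPM (-5.90 ± 0.74). General neuronal genes were not absent from NHSM-v. TUBB3, neuronal tubulin, was at 303, 315, and 253 CPM there against 666, 668, and 702 CPM (-1.21 ± 0.08, adjusted p = 3.76e-10), and the adhesion molecule CNTN2 at 382, 352, and 313 against 679.8, 767, and 775 CPM (-1.07 ± 0.08). DCX, a microtubule protein of migrating neurons that was chosen after its values were seen, was lower in NHSM-v (-2.85 ± 0.08). In bulk RNA, fewer cells that express a gene and less of its RNA per cell cannot be told apart.

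Neural crest regulators were lower in NHSM-v in 16 of 21 cases and higher in 1, MSX2 (41.05, 53.7, and 54.6 against 9.96, 7.005, and 11.5 CPM). SOX10, the crest and glial regulator, was at 0.677, 0.412, and 0.352 CPM in NHSM-v and 191, 102, and 241 CPM in t2iLGöY (-8.53 ± 0.37, adjusted p = 1.21e-12). MITF, the master regulator of melanocytes, was at 5.07, 5.97, and 4.75 against 216, 102, and 224 CPM (-5.09 ± 0.26, adjusted p = 1.47e-11), and ERBB3, the neuregulin receptor of crest-derived glia, at 4.17, 4.84, and 1.85 against 251, 148, and 311 CPM (-6.05 ± 0.28, adjusted p = 3.79e-12). In each of these genes t2iLGöY replicate 2 had the lowest t2iLGöY level, and even that library was far above all NHSM-v libraries. The groups did not overlap in 56% of all genes tested.

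PAX7, which marks crest precursors and dorsal midbrain, had no count in NHSM-v and 22.99, 13.4, and 12.9 CPM in t2iLGöY (at least 54.1-fold lower). TFAP2B was at 34.8, 30.9, and 35.03 against 316, 305, and 325 CPM (-3.22 ± 0.09, adjusted p = 4.28e-15), and TFAP2A at 23.9, 17.4, and 20.6 against 133, 107, and 161 CPM (-2.69 ± 0.16). TWIST1, SNAI2, PAX3, and SOX8 were not called, with log2 fold changes from -0.40 to -0.04.

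A list of 28 melanocyte and Schwann cell genes, drawn up after the leading genes were seen and therefore no independent evidence, had 18 of 27 tested genes lower and none higher in NHSM-v. Its members sum to 611, 599, and 600.2 CPM in NHSM-v and to 2853, 1705, and 3325 CPM in t2iLGöY. PAX3, GPM6B, and SNAI2, which other cells also express and which were not called, made up much of the NHSM-v sum. PMEL, a melanosome protein, was at 149, 143, and 131 CPM against 849.5, 480.3, and 1083 CPM (-2.50 ± 0.18). DCT, a further enzyme of melanin synthesis, was at 0.338, 0, and 0.704 against 53.9, 20.5, and 51.7 CPM (-6.80 ± 0.52), MLANA, a melanosome protein, was lower (-6.30 ± 0.54), and CDH19, a cadherin of Schwann precursors, had no count in NHSM-v (at least 119-fold lower). TYR, the rate-limiting melanin enzyme, was not called (3.90 against 6.43 CPM).

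In 17 of these 18 lower genes, t2iLGöY replicate 2 was the lowest of the 3 t2iLGöY libraries, whereas over all 2960 genes lower in NHSM-v it was the lowest in 27.7%. For the neural crest list it was the lowest in 10 of 16 genes, and for the proneural and neuronal list it was the lowest in 5 of 31 and the highest in 19. The part of this library in the group differences was not tested beyond leaving it out. Without t2iLGöY replicate 2 the count of genes lower in NHSM-v was 2837.

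**Figure D4:**
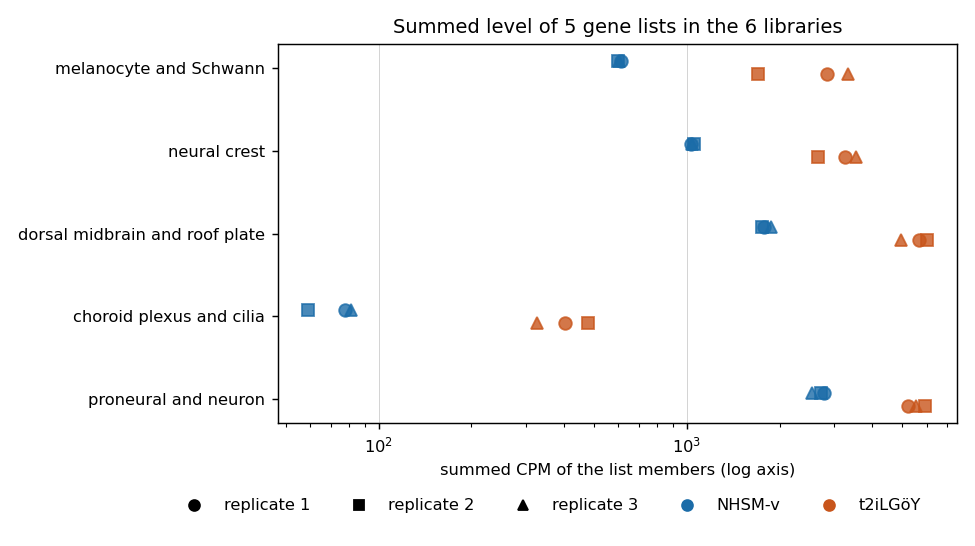
Summed CPM of the members of 5 gene lists on a log axis, 1 point per library, with the marker shape giving the replicate number. All t2iLGöY sums lie above all NHSM-v sums, and t2iLGöY replicate 2 (square) is lowest for the melanocyte and Schwann and the neural crest lists and highest for the other 3.

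Genes of the dorsal midbrain and roof plate, also listed after the leading genes were seen, were lower in NHSM-v in 25 of 36 cases and higher in 4 (BMP5, MSX2, EN1, and EN2). Beside OTX1, WNT8B, CBLN1, and WNT1, the t2iLGöY side held the roof plate ligand GDF7 (-2.89 ± 0.39) and the homeobox genes BARHL1 (-4.63 ± 1.04) and LMX1B (-2.80 ± 0.12). OTX2, which primed PSCs and the anterior neural plate share, was at 146, 136, and 161 against 306, 332, and 258 CPM (-1.01 ± 0.10, adjusted p = 9.28e-08). A further list of this kind, choroid plexus and cilia, had 14 of 17 genes lower and none higher (1 higher without NHSM-v replicate 1 or t2iLGöY replicate 2), at summed levels of 77.6, 59.2, and 81.6 CPM against 402, 479, and 327 CPM. FOXJ1, the master factor of motile cilia, was lower in NHSM-v (-4.62 ± 0.38). WDR49, a gene of ciliated cells, had at most 3 counts in each NHSM-v library, and its t2iLGöY level was higher by a ratio of summed counts of 284 (exact counting interval 111 to 1042).

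Of 17 tested glial genes, 7 were higher and 4 lower in NHSM-v (41.2% and 23.5%, against 23.1% and 22.7% of all genes). CLU (clusterin), an astrocyte gene, was at 493, 479.8, and 473 against 38.5, 30.2, and 31.8 CPM (3.86 ± 0.10, adjusted p = 4.62e-16) and CSPG4 (NG2), of oligodendrocyte precursors and pericytes, at 77.2, 72.1, and 66.4 against 3.001, 4.34, and 3.54 CPM (4.32 ± 0.20, adjusted p = 3.34e-12). SLC1A3, GFAP, NFIA, NFIB, and TNC were the other 5 higher genes. The lower genes included OLIG2 and SOX10, factors of the oligodendrocyte lineage, and SOX9, which radial glia, astrocytes, and neural crest express. AQP4 and OLIG1 were too low to be tested.

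HOX genes were low in both groups and 14 of 38 were not tested. HOXA2, an anterior hindbrain gene, was at 49.8, 41.5, and 44.7 against 14.5, 15.4, and 12.1 CPM (1.70 ± 0.19, adjusted p = 5.75e-07), whereas HOXB2 was at 22.3, 19.96, and 20.8 against 36.5, 32.4, and 33.8 CPM (-0.69 ± 0.18) and HOXB3 at 6.43, 5.66, and 3.43 against 15.96, 17.1, and 15.8 CPM (-1.65 ± 0.33). The other calls were HOXB9 and HOXC5, higher, and HOXD3, lower, which makes 3 of 24 in each direction. This share of 12.5% each way lay below the 23.1% and 22.7% of all genes. The number higher was 1 without NHSM-v replicate 2 or 3 and 5 without t2iLGöY replicate 2. A call for HOXB9 was lost when single libraries were left out and with total counts alone.

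Among 30 mesoderm and endoderm genes, 21 were too low to test, including T, SOX17, FOXA2, GATA4, GATA6, and AFP. KDR, LHX1 (11.5, 13.1, and 15.2 against 2.80, 4.40, and 5.56 CPM, 1.65 ± 0.37), and CXCR4 (0.41 ± 0.14) were higher in NHSM-v and TTR was lower, and 2 genes were lower without NHSM-v replicate 2 or t2iLGöY replicate 3. Of 9 tested trophoblast and amnion genes, 4 were higher (KRT7, MSX2, TEAD3, and IGFBP3) and 3 lower (ISL1, TFAP2A, and TFAP2B), and the defining genes CDX2, CGA, ELF5, TP63, and GATA2 were too low to test. At most 3 counts in every library of both groups were found for 9 of the 30 mesoderm and endoderm genes and 5 of the 20 trophoblast and amnion genes.

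Adhesion and guidance genes had no common direction. CDH6, a cadherin of neural tube and kidney, was at 1221, 1189.8, and 1175 against 485, 485, and 495 CPM (1.30 ± 0.05, adjusted p = 4.86e-13), while PCDH1 was at 11.3, 17.8, and 9.86 against 178, 102, and 228 CPM (-3.69 ± 0.26) and PCDH20 at 6.54, 5.14, and 7.57 against 67.5, 79.8, and 51.3 CPM (-3.35 ± 0.22). Of 42 cadherins and protocadherins, 10 were higher and 17 lower (23.8% and 40.5%, against 23.1% and 22.7% of all genes). Members of the PCDHB cluster share sequence, so that reads could be split between them, and they are not named further. Of 67 axon guidance genes, 29 were higher and 20 lower (43.3% and 29.9%, against the same shares of all genes). The repulsive semaphorins SEMA3A (99.01, 94.5, and 93.6 against 2.66, 1.93, and 1.66 CPM, 5.52 ± 0.20) and SEMA3C (934, 922, and 973 against 117, 116, and 83.95 CPM, 3.16 ± 0.10) were among the former and the ephrin receptor EPHA7 (348, 339, and 343 against 1203, 1285, and 1105 CPM, -1.79 ± 0.06) among the latter.

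Ion channel and neurotransmitter receptor genes were lower in NHSM-v in 38 of 109 cases and higher in 16 (34.9% and 14.7%, against 22.7% and 23.1% of all genes). KCNA1, a voltage-gated potassium channel, was one of the 12 leading genes of NHSM-v, at 29.7, 17.6, and 26.8 against 0.546, 0, and 0 CPM (7.0 ± 0.63). The GABA receptor subunit GABRG1 had no count in NHSM-v and 3.27, 9.67, and 4.70 CPM in t2iLGöY (at least 19.4-fold lower in NHSM-v). HTR1D, a serotonin receptor, was at 32.9, 27.1, and 23.4 against 1.57, 0, and 1.08 CPM (4.98 ± 0.54). CACNA2D1, a calcium channel subunit, was lower (-0.81 ± 0.11).

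Glycolysis and hypoxia-response genes were higher in NHSM-v in 19 of 26 cases, with 1 lower (ENO2, a call that held only when NHSM-v replicate 2 or t2iLGöY replicate 3 was the library left out) and a median of 0.73. SLC2A1, the GLUT1 glucose transporter, was at 725, 694, and 748 against 102, 108, and 85.8 CPM (2.88 ± 0.08, adjusted p = 3.91e-15). PFKP, the platelet form of phosphofructokinase, was at 78.4, 68.9, and 73.3 against 1.36, 0, and 2.17 CPM (5.99 ± 0.43, adjusted p = 1.54e-09). VEGFA and NDRG1, both induced by hypoxia, were at 148, 142, and 151 against 33.2, 31.2, and 37.7 CPM (2.12 ± 0.12) and at 84.2, 77.3, and 97.2 against 12.9, 13.9, and 14.4 CPM (2.66 ± 0.16). The glycolytic enzymes GAPDH and ENO1 differed by 0.38 ± 0.05 and 0.79 ± 0.06, and CA9, PDK1, and EGLN3, 3 further hypoxia targets, were not called.

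Oxidative phosphorylation subunits were lower in 19 of 69 cases and higher in 5, with a median of -0.25, which is 0.23 below that of all genes with each scaling. The shares called were 27.5% lower and 7.25% higher, against 22.7% and 23.1% of all genes, and 3 were higher when any NHSM-v library was left out. COX6C was at 27.2, 21.2, and 18.8 against 45.6, 62.04, and 49.7 CPM (-1.22 ± 0.19, adjusted p = 3.13e-05) and NDUFB4 at 40.1, 37.8, and 44.9 against 104, 105, and 79.4 CPM (-1.22 ± 0.14), while the ATP synthase subunits ATP5A1 and ATP5B were not called (-0.11 and -0.03).

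Cytosolic ribosomal protein genes were lower in NHSM-v in 57 of 76 cases (75%) and higher in none (1 without t2iLGöY replicate 3), with a median of -0.51 that lay 0.48 below the median of all genes with TMM, upper-quartile, and total-count scaling alike. RPL4 was at 794, 809.6, and 808 against 1047, 954, and 1105 CPM (-0.35 ± 0.06, adjusted p = 6.83e-05). RPL39 was at 16.2, 12.2, and 14.3 against 61.5, 59.04, and 46.3 CPM (-1.95 ± 0.19) and RPS27 at 93.6, 89.2, and 75.4 against 197, 251, and 191 CPM (-1.30 ± 0.12). These genes have many processed pseudogenes, and reads shared with them could have been dropped or split when the authors counted, so their levels are uncertain.

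Cell-cycle genes were mixed. Of 33 mitosis genes, 18 were lower and 3 higher in NHSM-v, with a median of -0.36, or 0.33 below that of all genes with each scaling. MKI67, the Ki-67 proliferation marker, was at 754, 723, and 735 against 929, 863, and 959 CPM (-0.30 ± 0.06, adjusted p = 2.24e-04), and the kinetochore gene NDC80 at 23.8, 39.6, and 20.1 against 45.6, 60.6, and 44.6 CPM (-0.84 ± 0.22). Of 36 DNA replication genes, 7 were higher and 5 lower (19.4% and 13.9%, against 23.1% and 22.7% of all genes). Their median of 0.14 turned to -0.07 with total counts alone and was 0.05 without t2iLGöY replicate 2. Without NHSM-v replicate 2, 3 were higher and 3 lower, and without t2iLGöY replicate 3, 3 were lower. RPA1, RPA2, and RPA3, the subunits of the single-strand binding complex, were all lower (-0.55, -0.71, and -1.13), although the call for RPA2 was lost when single libraries were left out.

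Of 28 genes of G1-S control, 8 were higher and 7 lower (28.6% and 25%), close to the 23.1% and 22.7% of all genes. CDKN1A (p21), a CDK inhibitor and p53 target, was at 55.9, 54.3, and 59.1 CPM in NHSM-v and 6.07, 5.74, and 8.67 CPM in t2iLGöY (3.06 ± 0.20, adjusted p = 6.41e-10). The imprinted CDK inhibitor CDKN1C (p57) was at 13.4, 11.1, and 13.5 against 62.9, 58.8, and 66.6 CPM (-2.30 ± 0.17, adjusted p = 3.07e-09), and CDK2 at 118, 111, and 117 against 261, 179, and 299 CPM (-1.08 ± 0.13). Of 23 p53 targets, 8 were higher and 5 lower (3 lower without NHSM-v replicate 2 or t2iLGöY replicate 3). These are 34.8% and 21.7%, against 23.1% and 22.7% of all genes. TNFRSF10B, a death receptor, was at 110.1, 135, and 134 against 9.55, 2.54, and 4.26 CPM (4.55 ± 0.29), whereas BBC3 (PUMA) and CCNG1 were lower (-1.07 ± 0.35 and -0.43 ± 0.09).

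Of 16 BCL2 family genes, BAX, BAK1, BCL2L11, and BOK were higher and BCL2A1, HRK, BMF, and BBC3 lower in NHSM-v. These 4 in each direction are 25% of the family, close to the 23.1% and 22.7% of all genes. BOK, a killer member, was at 59.1, 45.1, and 67.2 against 28.3, 21.6, and 26.9 CPM (1.17 ± 0.18) and BMF, a sensitizer, at 47.02, 64.4, and 60.2 against 126, 111, and 137 CPM (-1.11 ± 0.13, adjusted p = 1.60e-06). HRK was at 1.01, 3.81, and 0.792 against 24.8, 28.3, and 22.3 CPM (-3.74 ± 0.44), and the survival factor MCL1 was not called (-0.07 ± 0.07).

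The maintenance methyltransferase DNMT1 and its partner UHRF1 were slightly higher in NHSM-v, at 291, 296, and 311 against 248, 210.4, and 249 CPM (0.36 ± 0.08) and 256, 245, and 228 against 173, 174, and 197 CPM (0.44 ± 0.08). The call for DNMT1 was lost with total counts alone. TET1, which oxidizes methylcytosine, was at 35.2, 27.5, and 35.3 against 82.5, 81.5, and 79.1 CPM (-1.30 ± 0.14, adjusted p = 5.72e-07), and DNMT3B was lower as described above, while DNMT3A, TET2, and TET3 were not called. DNMT3L was too low to be tested.

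Imprinted genes had no common direction, 7 of 22 being higher and 5 lower (31.8% and 22.7%, near the shares of all genes). PHLDA2, a growth-restraining placental gene, was at 9.02, 8.85, and 10.03 CPM in NHSM-v with 1 count in t2iLGöY (ratio of summed counts 407, counting interval 72.4 to 16117). The growth regulators MEST and IGF2R were at 1898, 1747, and 1809.97 against 898, 900.2, and 810.02 CPM (1.08 ± 0.05) and 1206, 1268, and 1236 against 490.04, 446, and 495 CPM (1.39 ± 0.06), and PEG3 and DLK1 at 145, 150.001, and 156 against 521, 615, and 489.7 CPM (-1.84 ± 0.09) and 47.8, 52.2, and 44.7 against 164, 194, and 168 CPM (-1.85 ± 0.11). Of 105 X-linked genes, 30 were higher and 26 lower (15 and 44 with total counts alone). Those 28.6% and 24.8% lay close to the 23.1% and 22.7% of all genes. The median was -0.01, so that X-linked genes as a list sat at the median of all genes. PLP2 (55.7, 40.5, and 44.8 against 0.887, 0, and 1.73 CPM, 5.77 ± 0.47) and ELF4 (46.2, 38.9, and 44.6 against 5.32, 3.74, and 1.52 CPM, 3.62 ± 0.32) were the X-linked genes with the largest rise among those named by the rule.

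Of 28 polycomb and BAF complex genes, 10 were lower and 2 higher (1 higher without t2iLGöY replicate 1). ACTL6B, the BAF subunit of postmitotic neurons, was at 0.451, 0.412, and 0.0880 against 11.1, 6.74, and 11.9 CPM (-4.96 ± 0.66), while the catalytic subunit SMARCA4 differed by -0.36 ± 0.06. LIN28B, the RNA-binding inhibitor of let-7, was at 24.1, 29.6, and 26.6 against 69.8, 91.3, and 103 CPM (-1.70 ± 0.16, adjusted p = 9.89e-08), and 9 of 15 genes of its list were lower and 2 higher (1 without NHSM-v replicate 1 or 2 or t2iLGöY replicate 2), among them HMGA2 (509, 534, and 532 against 231, 204, and 272 CPM, 1.17 ± 0.09). Of 389 zinc-finger genes, 119 were lower and 23 higher, with a median of -0.29. ZNF664 was at 393, 359, and 416 against 609, 591, and 629 CPM (-0.64 ± 0.07), and ZNF703 went the other way (217, 188, and 198 against 21.1, 19.7, and 31.2 CPM, 3.08 ± 0.15).

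Stress and lipid genes showed smaller or mixed differences. Of 22 cholesterol synthesis genes, 8 were lower and 2 higher (1 higher when any library other than t2iLGöY replicate 3 was left out), with HMGCS1, the entry enzyme, at 318, 337, and 334 against 549, 579.6, and 533 CPM (-0.74 ± 0.07). The shares were 36.4% lower and 9.09% higher, against 22.7% and 23.1% of all genes. Of 21 ATF4 and amino acid stress genes, 7 were higher, among them the leucine transporter SLC7A5 (748, 764, and 748 against 236, 159.8, and 239 CPM, 1.84 ± 0.11), and 4 were lower, among them DDIT4, an mTORC1 inhibitor (30.3, 40.6, and 29.1 against 117, 114, and 134 CPM, -1.85 ± 0.14). ATF4 itself was not called (-0.11 ± 0.07). The shares of its list were 33.3% higher and 19% lower, against 23.1% and 22.7% of all genes. The number higher was 4 without NHSM-v replicate 2, and the number lower was 2 without NHSM-v replicate 1 or 3. Heat shock genes had 5 calls in each direction of 22, or 22.7%, which is near the share of all genes (3 lower without t2iLGöY replicate 3). They were led by the small chaperone CRYAB (37.6, 40.3, and 38.02 against 5.93, 2.07, and 5.06 CPM, 3.16 ± 0.30). Of 14 interferon-stimulated genes, 3 were higher and 1 was lower (21.4% and 7.14%, against 23.1% and 22.7% of all genes). Without t2iLGöY replicate 2, 5 of these were higher and 2 lower, and without NHSM-v replicate 2, 2 were lower.

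The other groups of the study give a scale for these levels. Among the 1236 genes higher by at least 1 in NHSM-v, the mean level in LCDM (EPS) cells lay below both protocols for 51.7% and above both for 3.8%, whereas in 4i/L/b cells it lay below both for 7.2% and above both for 26.9%. For the 1307 genes lower by at least 1, LCDM (EPS) cells were above both for 34.7% and 4i/L/b cells for 9.33%. Primed cells were below both for 36% of the higher genes and for 43.8% of the lower genes. These placements share the 2 groups that defined the genes and are given as a description.

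For single genes, the order of the groups depended on the gene. SPRY4 had mean levels of 179 CPM in NHSM-v, 128 in 4i/L/b, and 139.8 in TL-CDK8i cells, against 10.4 in t2iLGöY, 11.2 in LCDM (EPS), and 14.5 in TL2i cells. DUSP6 was at 322 ± 26.1 CPM in 4i/L/b and 396 ± 61.4 CPM in TL-CDK8i cells (SD, n = 3 each), above the 189 ± 3.49 CPM of NHSM-v, and at 16.1 ± 0.687 CPM in LCDM (EPS) cells, close to the 15.5 ± 3.04 CPM of t2iLGöY. COL6A1 was highest in NHSM-v of all 8 groups, at 1597 ± 99.7 CPM, followed by 4i/L/b at 579 ± 67.5 CPM. WNT1 was highest in t2iLGöY, at 668 ± 38.5 CPM, and next in TL2i at 88.4 ± 6.68 CPM, and SOX10 was at 178 ± 70.9 CPM in t2iLGöY and 126 ± 30.5 CPM in TL2i, whose libraries overlap.

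**Figure D5:**
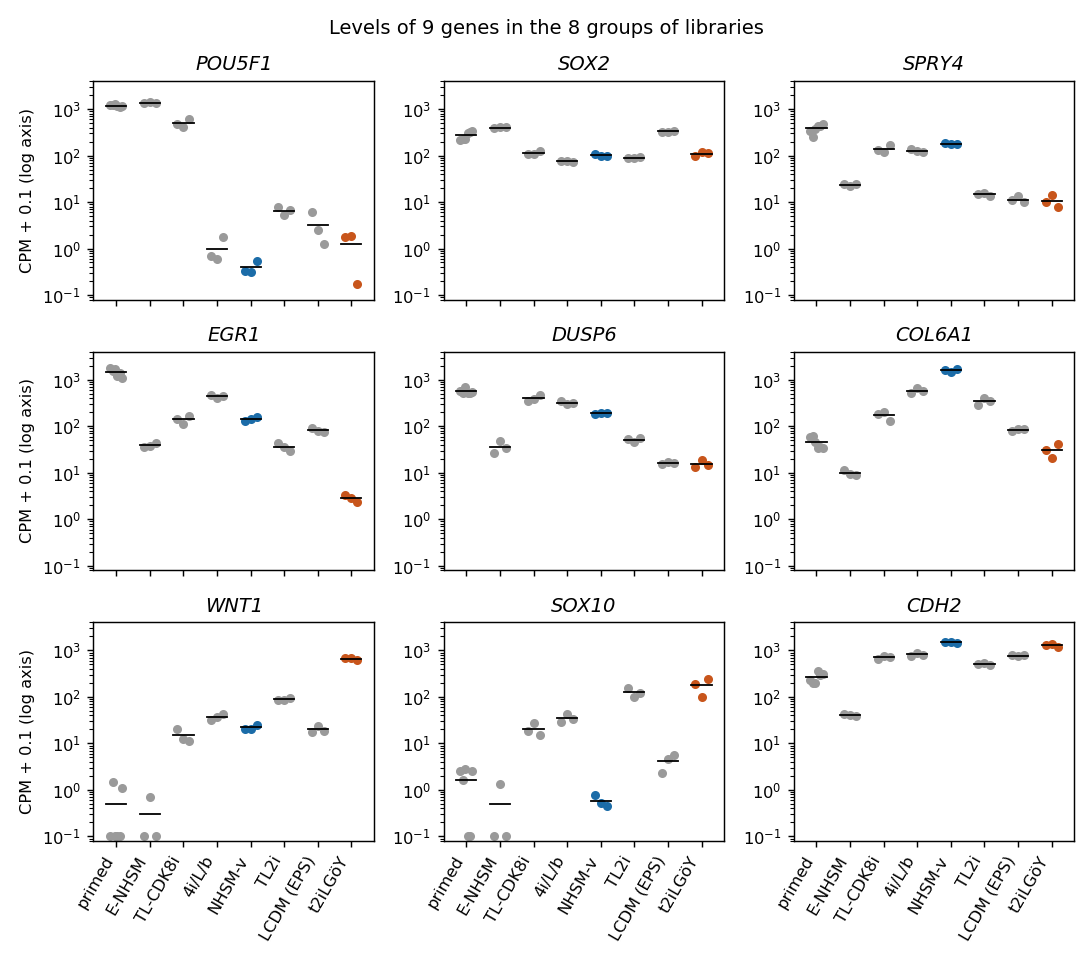
CPM plus 0.1 on a log axis for 9 genes in the 8 groups, 1 point per library (6 primed and 3 of each protocol), with a black bar at the group mean. POU5F1 is below 2 CPM in NHSM-v and t2iLGöY and above 1000 CPM in primed cells, SPRY4, EGR1, DUSP6, and COL6A1 are higher in NHSM-v (blue) than in t2iLGöY (orange), WNT1 and SOX10 are lower, and SOX2 and CDH2 differ little.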

How the data were processed

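Poly(A) RNA of rhesus ES cells was sequenced by the authors as single reads of a directional mRNA library. The submitters' processing notes name bcl2fastq, cutadapt, HISAT2, and HTSeq, and the genome build, annotation, and strand setting are not given in the sources used here, so genes are given by symbol only, and genes that overlap or have near-identical copies are uncertain. The deposited tables hold raw counts per gene symbol. Without unique molecular identifiers, intervals and floors cover counting error only.

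The counts of 3 NHSM-v and 3 t2iLGöY libraries were fitted with edgeR 4.0.16 (R 4.3.3): filterByExpr, TMM normalization, a quasi-likelihood F test over all 13067 genes kept, and Benjamini-Hochberg adjustment, with a threshold of 0.05. SEs came from the same fits, and the code was tested on simulated counts. CPM values shown use TMM factors over all 27 libraries. Some genes of the rule are not reported here. Lists summarize all members, and CPM sums include genes not tested. The median SE of a log2 fold change was 0.192.

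Alternatives were DESeq2 1.42.0, upper-quartile and total-count scaling, no filter, a stricter filter, equal depth by thinning, all 8 groups in one fit, a replicate block, a minimum fold change, and leaving out each library. Named genes were the 12 largest per direction (mean of at least 20 CPM in the higher group, no overlap), up to 4 called members per list with the largest change (at least 5 CPM) and its 2 highest members, and 18 genes always named. Lists with up to 12 called members could be given in full. All genes outside this rule that are given with values, such as EPHA4, FOS, ID1, ID2, BMP2, INHBA, INHBB, HES1, MLANA, GDF7, BARHL1, LMX1B, FOXJ1, PMEL, TYR, LIFR, MYLK, and FAP, were chosen after their values were seen. The comparison and the gene lists were chosen with earlier results of these data known. The 5 lists on melanocytes and Schwann cells, roof plate, choroid plexus and cilia, secreted factors, and caveolae were added after the leading genes were seen.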

Additional observations from a re-analysis of the deposited data

Results flagged for a closer look

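In the 6 primed libraries, which serve as a scale for the levels, the highest library lay far from the other 5 for 3 of 18 genes checked. The check pooled both sets of primed libraries. KLF4 was at 2.43 CPM in its highest library, against a median of 0.701 CPM over the 6. DUSP6 was at 694.5 CPM, against a median of 543.9 CPM and a lowest value of 523.4 CPM. PAX6 was at 7.79 CPM, against a median of 2.71 CPM and a lowest value of 1.86 CPM. The criterion was Dixon's ratio, which chance alone passes in about 1 of 20 groups, and the groups of 3 libraries are too small for it. The NHSM-v and t2iLGöY values do not use the primed libraries, apart from the TMM factors.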

How the results depend on the processing

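The number of genes that differed was 5982, and it was 6089 with DESeq2, 6079 with upper-quartile scaling, 6455 with total counts alone, 6117 without a filter, 5638 with at least 10 counts in every library, 6110 with all 8 groups in one fit, 5988 with counts thinned to the shallowest library, and 5081 to 5866 with 1 library left out (2568 to 3029 higher, 2513 to 2837 lower). When an absolute log2 fold change of at least 1 was also required, it was 2543, with 1236 higher and 1307 lower. Of the calls, 5017 were kept in direction with total counts alone, and 1 was reversed. Among the named genes, the log2 fold change turned negative with total counts alone for CDH2 (-0.00242), NES (-0.13), SREBF2 (-0.0657), TGFBR1 (-0.0320), and ZIC2 (-0.20), and no called gene among those named turned sign under another alternative. For the named genes, 5135 values under the alternatives kept their direction and side of the threshold, 156 lost the call in the same direction, 36 gained it, and 48 that were not called changed sign. With a replicate block, 5758 genes differed (2948 higher, 2810 lower), and 5673 calls were kept. Deviations of same-numbered libraries correlated by -0.01, 0.01, and 0.0003, and not every library correlated best with its own number. No label says what the replicate numbers stand for, and correlations over 3 libraries per group cannot decide it. The median distance within NHSM-v, within t2iLGöY, and between them was 1.35, 1.62, and 4.55 over the 500 genes of highest variance, and 0.903, 0.985, and 1.63 with a prior count of 0.5. Lists with few members near the floor lost calls under the stricter filter, which tested 11491 genes. Genes with no count in 1 group have no upper limit on their fold.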

Other observations

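A list of 36 secreted growth factors and cytokines, drawn up after the leading genes were seen, had 15 of 24 tested genes higher and 2 lower in NHSM-v, with a median log2 fold change of 1.59 that was 0.76 over the genes with at least 10 counts in every library. Beside LIF, CCL2, and ANGPTL4, the higher genes included PTN, ANGPTL2, CSF1, PDGFC, VEGFC, VEGFA, BDNF, HBEGF, PDGFB, EDN1, and IL11. IL11, a cytokine that uses the gp130 receptor chain like LIF, was at 1.24, 3.09, and 2.73 CPM in NHSM-v and had no count in t2iLGöY (at least 11.4-fold higher), and EDN1, the vasoconstrictor endothelin 1, at 43.8, 60.7, and 42.9 against 1.43, 0, and 0.939 CPM (5.96 ± 0.46). The lower genes were the chemokine CXCL12 (-1.54 ± 0.33) and the heparin-binding factor MDK (-0.49 ± 0.06).

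A list of 25 caveolae and focal adhesion genes, also drawn up after the leading genes were seen, had 19 of 23 tested genes higher in NHSM-v and none lower (1 lower with upper-quartile scaling or total counts alone), with a median of 1.40. CAV1, the main coat protein of caveolae, was at 359.5, 345, and 360.2 CPM in NHSM-v and 168, 139.7, and 234 CPM in t2iLGöY (0.99 ± 0.13), and ZYX, which reinforces strained actin, at 413, 405, and 472 against 106, 93.6, and 99.3 CPM (2.12 ± 0.08). The genes named from both lists were chosen after their values were seen.

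Among the 14 choroid plexus and cilia genes lower in NHSM-v, t2iLGöY replicate 3 was the lowest t2iLGöY library in 11, whereas over all 2960 genes lower in NHSM-v it was the lowest in 37.2%. Among the 25 roof plate genes lower in NHSM-v, it was the lowest in 17. For the 18 melanocyte and Schwann genes, it was the highest in 13, so the libraries of t2iLGöY were ordered differently by these lists. The cause was not tested.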
